A study of Mus musculus with 20 samples.

Results

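The genes described here lie next to Plod1, the gene deleted in these mice, on mouse chromosome 4. They were chosen by position in the GENCODE M21 annotation (build GRCm38): every gene other than Plod1 within about 5 Mb to either side that reached an FPKM of 1 in at least 5 of the 20 mice. FPKM is the number of sequenced fragments of a gene, scaled to transcript length and to library size. Of 310 annotated genes in this window, 281 were listed in the files and 83 passed this filter, out of 13263 genes that passed it in the whole genome and 747 on the rest of chromosome 4. Among the 83 members were 67 protein-coding genes and 12 pseudogenes. There were 19 members on the side of lower coordinates and 64 on the side of higher coordinates. The filter was passed in all 20 mice by 62 members and in 5 to 19 mice by 21. Casz1, Cenps and Slc2a5 passed it in exactly 5 mice, and no gene of the window missed it by 1 mouse. Cenps passed only through the 5 Plod1-/- mice with Ang II and Slc2a5 mainly through WT mice with Ang II, so their differences there come with the choice.

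RNA sequencing was performed on the abdominal aorta of WT and Plod1-/- mice. They were infused for 14 days with saline or with angiotensin II (Ang II) at 1000 ng/kg/min from osmotic pumps. The strain was C57BL/6 in the labels and C57Bl/6NCrl in the methods. The age was 6 months in the labels, and the methods give a younger age at pump implantation. There were 4 groups of 5 mice: WT with saline, Plod1-/- with saline, WT with Ang II and Plod1-/- with Ang II. The study states that its mice were male littermates from crosses of Plod1+/- parents. It also states that a commercial supplier made the knockout on the C57Bl/6NCrl background, the strain of its WT mice. The bases removed from Plod1 are not given in the sources used here. The labels only number the samples of a group, so p-values measure the spread between these samples.

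Plod1 encodes lysyl hydroxylase 1, an enzyme of the endoplasmic reticulum that hydroxylates lysines of collagen chains and so prepares them for crosslinking. A targeted allele can alter the genes beside it in ways that are separate from the loss of the protein: the inserted or deleted DNA can hold or remove regulatory elements, and the chromosome around it can carry DNA of the embryonic stem cell or donor strain. Effects of this kind act on the same chromosome copy and are inherited with the allele, though they need not be the same under each treatment. They are often looked for by distance from the target and by agreement between independent sets of mice carrying it. The stretch around Plod1 holds genes of varied function, among them the mitochondrial fusion protein Mfn2, the growth regulator Mtor, the natriuretic peptides Nppa and Nppb, and a cluster of KRAB-type zinc finger genes.

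The nearest member was 2510039O18Rik (ENSMUSG00000044496, chr4:147940895-147947314, plus strand), the mouse counterpart of human KIAA2013, which encodes a membrane protein whose function is poorly known. It lies 4.13 kb from Plod1 (chr4:147909753-147936767, minus strand), on the side of the start of Plod1. The genes are transcribed away from each other, and in RefSeq their start sites are 4119 bases apart. The spans of these genes do not overlap each other, and 2510039O18Rik overlaps no other annotated gene. The upstream stretches of both genes are shown because they face each other across this gap. Each is the 250 bases before the RefSeq start in GRCm38.p6, on the strand of its gene, with GC boxes (GGGCGG or its reverse complement CCGCCC) in capitals.
Plod1, chr4:147936777-147937026, minus strand: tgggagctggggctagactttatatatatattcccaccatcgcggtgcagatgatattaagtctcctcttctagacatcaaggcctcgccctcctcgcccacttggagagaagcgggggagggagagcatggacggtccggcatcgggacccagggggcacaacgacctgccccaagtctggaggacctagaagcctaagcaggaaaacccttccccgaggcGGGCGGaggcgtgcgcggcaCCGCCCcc
2510039O18Rik, chr4:147940645-147940894, plus strand: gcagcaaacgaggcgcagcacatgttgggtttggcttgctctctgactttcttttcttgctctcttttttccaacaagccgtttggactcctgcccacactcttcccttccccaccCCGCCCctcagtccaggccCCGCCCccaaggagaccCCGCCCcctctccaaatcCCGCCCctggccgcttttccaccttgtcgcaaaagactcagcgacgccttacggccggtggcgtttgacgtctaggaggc
The window of Plod1 held 2 GC boxes and that of 2510039O18Rik held 4, and 32.7% of the 32851 mouse promoters of this length in the same table held at least 1. The letters TATAAA, on either strand, occurred once in the Plod1 window and not in the other, against 12.4% of all promoters. The letters CCAAT were found in neither window on either strand, against 33.8% of all promoters. Both genes were found in the promoter table. Both windows were rich in G and C, at 61.6% and 60.8% against a median of 52.4% over all promoters.

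The labels were checked against Plod1 itself. Under saline it was at 25.9 ± 1.82 FPKM (SD, n = 5) in WT and 0.0205 ± 0.0192 in Plod1-/- mice, and under Ang II at 25 ± 2.76 and 0.00568 ± 0.0127. The genotypes did not overlap in either treatment (two-sided exact permutation test, p = 0.00794 in each, the smallest that 5 against 5 allows). Read counts were not among the values used. A relative depth read from the smallest FPKM steps ranged from 0.905 to 1.05 over the 20 libraries. Steps above a set limit were left out, which kept this range narrow, so it cannot show that depths were alike. Mitochondrial genes took 8.37% to 29.1% of the summed FPKM. In 2 libraries, Plod1-/- saline replicate 5 and Plod1-/- Ang II replicate 1, Xist RNA was at 15.1 and 7.93 FPKM against at most 0.0328 in the other libraries, although the study names male mice. The summed FPKM of 8 contractile smooth muscle markers had medians of 15862 in WT and 19275 in Plod1-/- mice under saline and of 8317 (range 5532 to 17074) and 4224 (2327 to 16992) under Ang II, where 2 of the 8 were called lower in the knockout and 0 higher. Macrophage markers were raised in the Ang II knockout group, where 6 of 6 were called higher than in WT. Whole tissue was sequenced, so a change in the number of cells of a type and a change in RNA per cell cannot be told apart.

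Among the 83 members, 2510039O18Rik alone was called with the same direction under saline and under Ang II. A gene is called here where limma's moderated test on log2(FPKM + 1), adjusted by Benjamini-Hochberg over all 13263 genes, gave a p below 0.05. In WT mice with saline 2510039O18Rik was at 5.32, 7.34, 5.84, 6.63 and 6.66 FPKM, and in Plod1-/- mice with saline at 7.88, 10.2, 10.9, 15.8 and 11.3 FPKM. The lowest knockout mouse lay above the highest WT mouse. With Ang II the WT mice were at 9.35, 14.5, 11.9, 7.44 and 8.68 FPKM and the Plod1-/- mice at 16.4, 27.9, 19.1, 21.6 and 30.5 FPKM, and again the groups did not overlap. The group means were 6.36 ± 0.784 and 11.2 ± 2.87 FPKM under saline and 10.4 ± 2.83 and 23.1 ± 5.91 FPKM under Ang II (SD, n = 5 each).

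On the log2(FPKM + 1) scale, which understates changes of low genes, the knockout was higher by 0.71 ± 0.15 (SE) under saline (limma, adjusted p = 0.0302) and by 1.08 ± 0.21 under Ang II (adjusted p = 0.0057). Over both treatments in all 20 mice the difference was 0.89 ± 0.14 (adjusted p = 0.00544). By its p the gene ranked 279 of 13263 under saline, 703 under Ang II and 6 over both treatments. The difference under Ang II exceeded that under saline by 0.38, with a 95% interval of -0.18 to 0.93 (adjusted p = 0.269). Ang II raised the gene in both genotypes, by 0.60 in WT (adjusted p = 0.0174) and by 0.98 in Plod1-/- mice (adjusted p = 0.00294). Over 20 alternatives for the saline comparison, 10 of which left out 1 mouse, the difference stayed between 0.53 and 0.81. It was called in only 10 of the 20, with adjusted p from 0.0154 to 0.0867. Of the 10 fits that left out 1 mouse, it was called in 4 and not called in 6. Under Ang II it was called in 20 of 20, between 0.98 and 1.2, and over both treatments in 28 of 28, between 0.83 and 0.97.

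Cell-type markers moved with the genotype under Ang II, and some did under saline, and their values stand beside this result. The summed FPKM of the 6 macrophage markers was 199 to 1288 in WT mice and 633 to 3682 in Plod1-/- mice under Ang II. Under saline it was 127 to 245 and 56.9 to 208. WT Ang II replicate 1 had the most macrophage RNA of its group and Plod1-/- Ang II replicate 1 the least of its group. Without both mice the difference of 2510039O18Rik under Ang II was 1.17 (limma adjusted p = 0.00412). Leaving them out widens the gap in macrophage markers between the genotypes, so this fit cannot show the part of these markers. Other lists also moved with the genotype under Ang II. Of the tested markers 3 of 3 neutrophil, 4 of 4 red blood cell and 13 of 13 immediate early genes were called higher in the knockout, 3 of 6 fibroblast markers were called, 2 of them higher, and 2 of 8 contractile smooth muscle markers were called lower. Under saline 2 of 6 fibroblast, 1 of 6 macrophage, 1 of 8 contractile smooth muscle and 2 of 13 immediate early genes were called. All of these were lower in the knockout, and 5.59% of all genes were called there. No gene of the other marker lists was called under saline. The part of these lists in the difference of 2510039O18Rik was not tested.

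**Figure D1:**
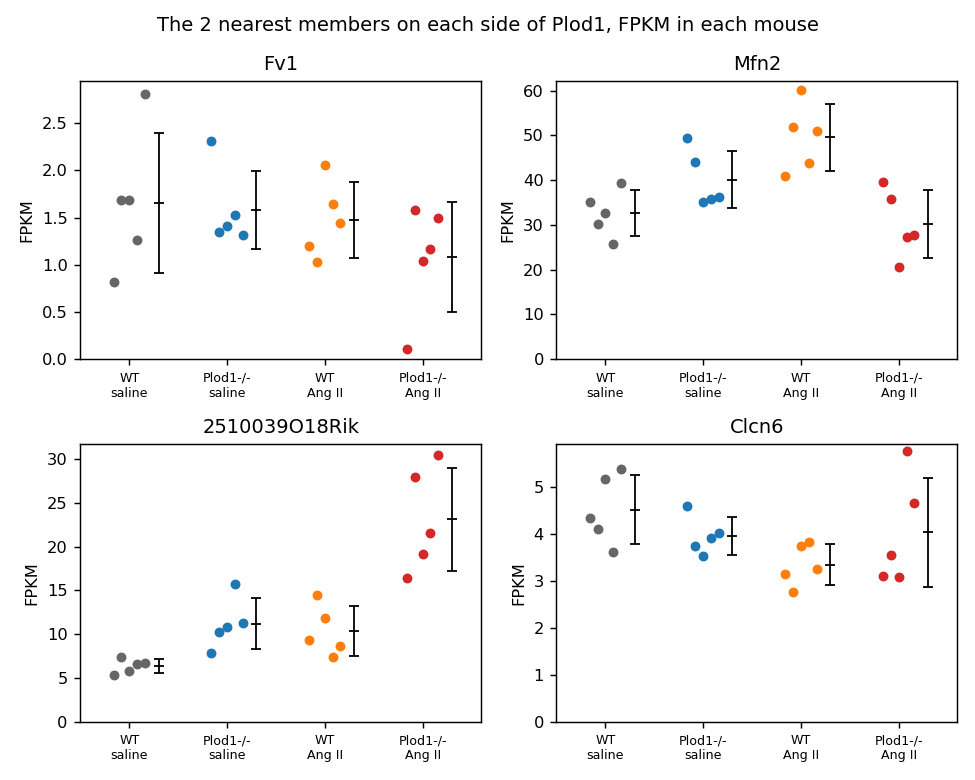
FPKM (vertical axis, linear from 0) of the 2 nearest members on each side of Plod1 in each of the 20 mice, by genotype and treatment. Points are mice, and bars are means ± SD of 5 mice. For 2510039O18Rik every Plod1-/- mouse lies above every WT mouse within each treatment, whereas for Mfn2 the knockout lies below WT only under Ang II.

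The gene next to Plod1 on its other side is Mfn2, which encodes mitofusin 2, a GTPase that joins mitochondrial outer membranes. Its span ends 5.05 kb from Plod1, on the minus strand, and it overlaps a processed pseudogene on the opposite strand. Under saline Mfn2 was at 35.1, 30.2, 32.6, 25.8 and 39.3 FPKM in WT and at 49.4, 43.9, 35.2, 35.7 and 36.3 FPKM in Plod1-/- mice, and the groups overlapped. Under Ang II it was at 40.9, 51.8, 60.1, 43.9 and 50.9 FPKM in WT and at 39.6, 35.7, 20.5, 27.2 and 27.8 FPKM in the knockout, with no overlap. The difference was 0.29 under saline (95% interval 0.01 to 0.58, limma adjusted p = 0.184) and -0.72 ± 0.18 (SE) under Ang II (adjusted p = 0.0163). The change of direction was itself called, at -1.01 ± 0.23 (interaction, adjusted p = 0.00266). Mfn2 rose with Ang II in WT mice by 0.59 (adjusted p = 0.0107). Both flanking genes were thus called under Ang II, in opposite directions, where 29.4% of all genes tested were called. Only 2510039O18Rik was called under saline, where the share of all genes was 5.59%.

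Other members near Plod1 on each side did not pass the test in either treatment. Fv1, a retrovirus restriction gene 39.4 kb away, differed by -0.01 under saline (95% interval -0.41 to 0.39) and -0.30 under Ang II (-0.79 to 0.20). Miip, which encodes an inhibitor of cell migration, differed by 0.35 (-0.11 to 0.82) and 0.07 (-0.33 to 0.47). On the other side Clcn6, a chloride-proton exchanger of late endosomes, differed by -0.15 (-0.37 to 0.08) and 0.19 (-0.16 to 0.54). Agtrap, the angiotensin receptor-associated protein gene, had group means of 8.98 to 11.8 FPKM and differed by 0.23 (-0.09 to 0.56) and 0.21 (-0.31 to 0.74).

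Farther out but within 0.5 Mb, the F-box genes lie side by side. They encode substrate adaptors of ubiquitin ligases. Fbxo44 was at 4.40 to 5.99 FPKM in WT and 5.87 to 6.66 in Plod1-/- mice with saline, and at 4.76 to 8.68 and 3.21 to 4.86 with Ang II. Its difference was 0.28 under saline (95% interval 0.09 to 0.46, limma adjusted p = 0.0755) and -0.74 ± 0.16 under Ang II (adjusted p = 0.00856), with an interaction of -1.01 ± 0.18 (adjusted p = 0.000418). Fbxo2 was at 6.81 to 12.9 and 11.2 to 28.1 FPKM under saline, a difference of 0.77 (0.27 to 1.28, adjusted p = 0.0707), and differed by -0.03 (-0.64 to 0.59) under Ang II. Fbxo6 beside them had intervals that included 0 in both treatments. Mir7022, a microRNA precursor within the span of Fbxo6, had the lowest difference within 0.5 Mb under saline, -0.99 (-1.71 to -0.28, adjusted p = 0.0883). It was listed at 0 in 4 of 5 knockout libraries and 1 of 5 WT libraries with saline, and reads of a gene this short cannot be told from those of Fbxo6.

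Taking all members under saline, 5 of 83 were called (6.02%), 3 higher and 2 lower in Plod1-/- mice. Over all genes tested 5.59% were called, and on the rest of chromosome 4 46 of 747 (6.16%). The share of members was thus near that of the genome. Called genes were 2510039O18Rik, Clstn1 and Espn, which were higher, and Errfi1 and Vamp3, which were lower. With a fold limit as well (log2 fold change beyond 1), 1 member remained, Errfi1, against 0.716% of all genes. Groups did not overlap for 8 members (9.64%) against 9.19% of all genes. The median size of the log2 fold change was 0.171 over the members and 0.163 over all genes.

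Distance from Plod1 did not order these values. Under saline 1 of 19 members within 0.5 Mb was called, 0 of 8 from 0.5 to 1 Mb (limma, 2 at an unadjusted p below 0.05), 1 of 18 from 1 to 2 Mb, 2 of 20 from 2 to 3.5 Mb and 1 of 18 from 3.5 to 5 Mb. The median size of the difference was 0.145 in the nearest bin and 0.186 in the farthest. Of 108 genes at 5 to 10 Mb 5 were called, and the median size there was 0.169. None of the 19 members at lower coordinates was called under saline (limma, 3 at an unadjusted p below 0.05). The 5 called members were all on the other side, which holds 64 members. Over all genes tested 5.59% were called.

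**Figure D2:**
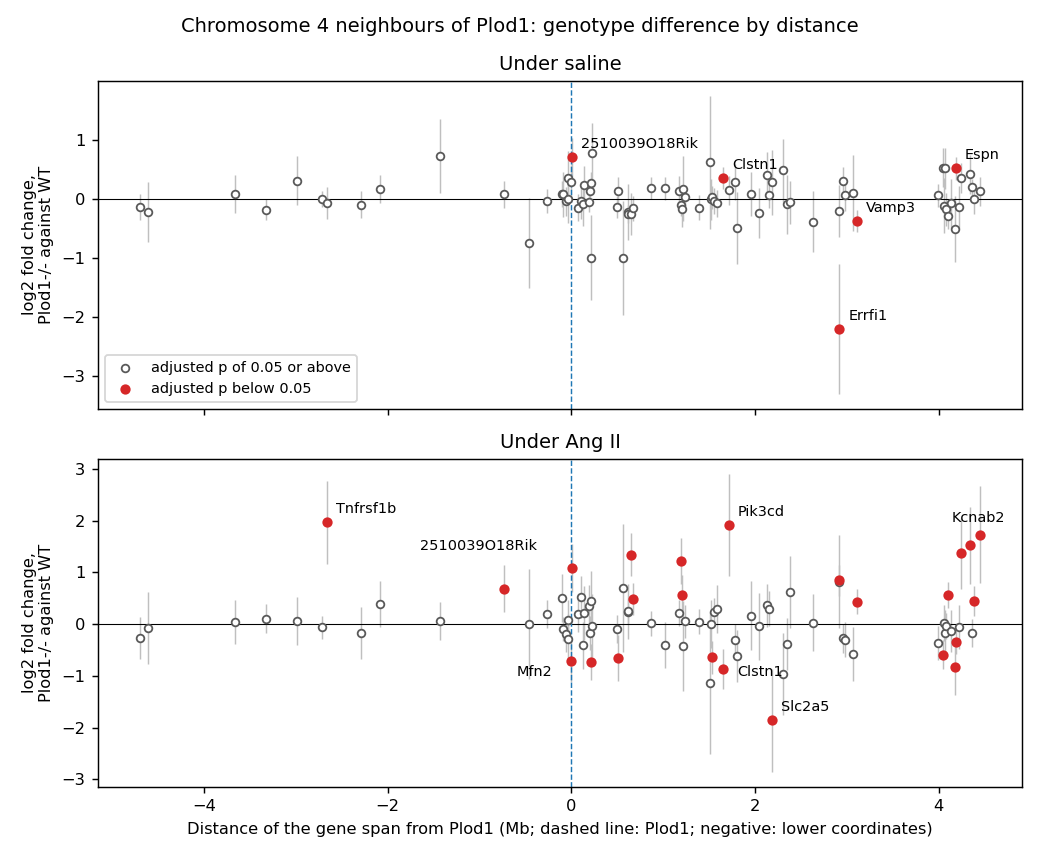
Log2 fold change of Plod1-/- against WT on log2(FPKM + 1) (vertical axes) by distance of the gene from Plod1 in Mb (horizontal axis), under saline above and under Ang II below. Points are the 83 members, lines are 95% intervals, and filled points have an adjusted p below 0.05. Filled points under saline lie at 0.00413, 1.65, 2.92, 3.11 and 4.18 Mb, and under Ang II 24 filled points are spread over the window in both directions.

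The other 4 members called under saline did not keep their direction under Ang II. Clstn1 encodes calsyntenin 1, a membrane protein that links cargo vesicles to kinesin. Under saline it was at 79.6, 74.2, 73.4, 67.1 and 84.7 FPKM in WT and 98.9, 96.4, 92.2, 107 and 89.9 FPKM in the knockout. Under Ang II it was at 54.8, 60.5, 67.7, 99.3 and 55.9 FPKM in WT and 30.9, 35.6, 33.2, 39.4 and 40.9 FPKM in the knockout. The knockout mice were thus all above WT with saline and all below with Ang II, at 0.35 ± 0.08 (SE, limma adjusted p = 0.0372) and -0.86 ± 0.17 (adjusted p = 0.00693).

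Espn, which encodes the actin-bundling protein espin, showed the same order at a low level. It was at 0.727, 0.925, 0.931, 1.10 and 0.891 FPKM in WT and 1.45, 1.63, 1.74, 2.12 and 1.79 FPKM in Plod1-/- mice with saline. With Ang II it was at 0.948, 1.37, 1.15, 1.10 and 1.05 FPKM in WT and 0.735, 0.560, 0.843, 0.525 and 0.712 FPKM in the knockout. The differences were 0.52 ± 0.09 (limma adjusted p = 0.0144) and -0.34 ± 0.11 (adjusted p = 0.0343), without overlap in either treatment. The call under Ang II was kept in 11 of 19 alternatives, among them 4 of 10 that left out 1 mouse, with adjusted p up to 0.111.

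Vamp3, a SNARE protein of recycling endosomes, went the other way. With saline it was at 32.6, 29.4, 28.1, 29.1 and 23.4 FPKM in WT and 22.2, 22.7, 22.2, 20.9 and 20.5 FPKM in the knockout. With Ang II WT mice were at 23.6, 21.8, 20.7, 24.5 and 23.5 FPKM and the knockout at 29.2, 29.5, 36.4, 30.6 and 30.4 FPKM. It was lower under saline, at -0.37 ± 0.09 (limma adjusted p = 0.0368), and higher under Ang II, at 0.43 ± 0.11 (adjusted p = 0.0146), again with no overlap. The gene overlaps Camta1 on the same strand. For Clstn1, Espn and Vamp3 the interactions of -1.21, -0.86 and 0.81 were called (adjusted p = 0.000191, 0.000143 and 0.00019).

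Errfi1 encodes a feedback inhibitor of the EGF receptor and belongs to the genes that respond early to stimulation of a cell. In WT mice with saline it was at 951, 200, 120, 217 and 106 FPKM, and in the knockout with saline at 48.1, 34.4, 43.3, 64.7 and 51.2 FPKM. The WT mice were all higher, and replicate 1 far above the others. The difference of -2.20 ± 0.50 (limma adjusted p = 0.0348) was the lowest among the members. Under Ang II the values were 36.2, 34.2, 39.5, 87.6 and 17.5 FPKM in WT and 150.2, 67.3, 47.3, 47.8 and 60.5 FPKM in the knockout, a difference of 0.82 (95% interval -0.08 to 1.73, adjusted p = 0.153). A list of 13 immediate early genes was measured in the same mice. Its summed FPKM was 749 to 3255 in WT and 351 to 1706 in the knockout with saline, and 203 to 372 and 873 to 2099 with Ang II. Under Ang II 13 of 13 were called higher in the knockout, and under saline 2 of 13 were called lower. The part of these genes in the Errfi1 result was not tested.

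**Figure D3:**
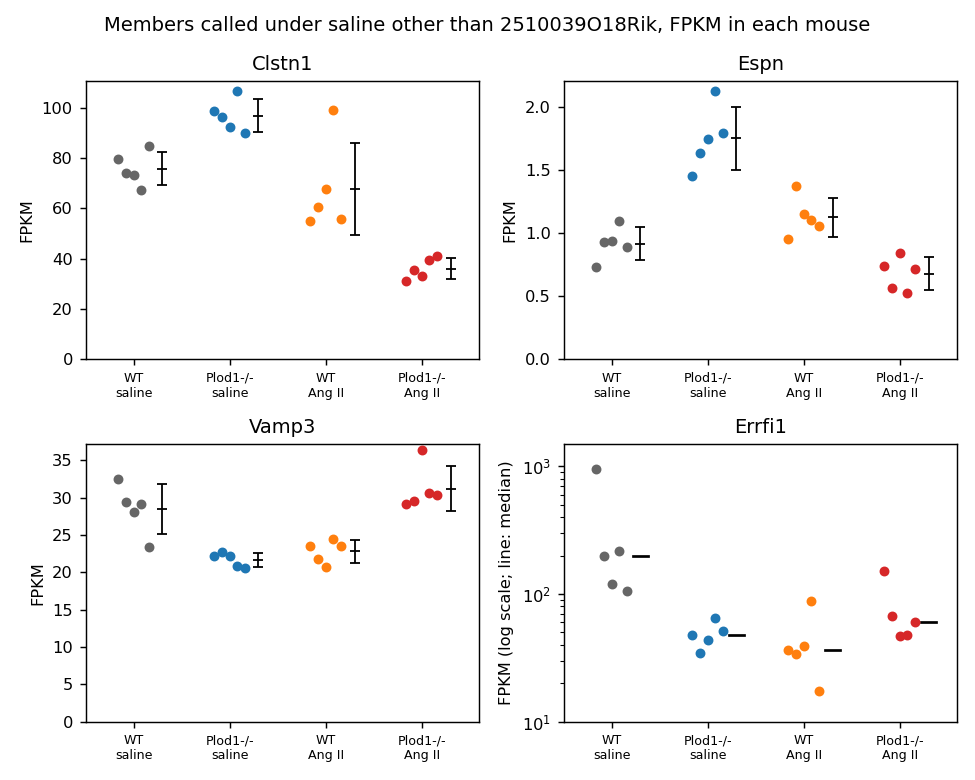
FPKM in each of the 20 mice for the 4 members other than 2510039O18Rik that were called under saline, by genotype and treatment (vertical axes linear from 0, log scale for Errfi1). Points are mice, bars are means ± SD of 5 mice, and lines for Errfi1 are medians. Clstn1 and Espn are higher in the knockout under saline and lower under Ang II, and Vamp3 the reverse.

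Gm13245, a processed pseudogene at 1.43 Mb toward lower coordinates that overlaps the lincRNA gene Gm26573, was among the members with the highest differences under saline. It was at 1.25, 0.284, 0.992, 1.72 and 1.96 FPKM in WT and 5.40, 1.42, 1.90, 3.10 and 2.06 FPKM in Plod1-/- mice, so the groups overlapped. The difference was 0.72 ± 0.28 (limma adjusted p = 0.139), and under Ang II it was 0.06 (95% interval -0.30 to 0.43).

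The saline calls changed with the processing and with single libraries. Of 20 alternatives Espn was called in 19, Errfi1 in 9, Vamp3 in 7 and Clstn1 in 6. The count of members was 5 with all mice. It was 1 without WT replicate 2 or 4 or Plod1-/- replicate 2 or 3, and 2 without Plod1-/- replicate 4 or 5. It was 3 without WT replicate 3 or Plod1-/- replicate 1, and 7 without WT replicate 5. Of all genes 1.2% to 4.91% were called when 1 mouse was left out, against 5.59% with all mice. Without both Plod1-/- replicates 4 and 5 limma called 0 members, with 19 at an unadjusted p below 0.05, and 0.641% of all genes.

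Under Ang II 24 of 83 members were called (28.9%), 15 higher and 9 lower in Plod1-/- mice, against 29.4% of all genes and 29.7% (222 of 747) on the rest of chromosome 4. With quantile normalization 28 were called, 14 higher and 14 lower, against 31% of all genes. With mitochondrial genes left out 13 were called higher and 12 lower, against 26.6% of all genes. The median log2 fold change of all genes was 0.11 on the FPKM scale and -0.03 after quantile normalization, a shift of 0.14, and the values given here are on the FPKM scale. With the fold limit 9 members remained, 8 of them higher, against 10.4% of all genes. Groups did not overlap for 14 members (16.9%) against 14.6% of all genes, 8 higher and 6 lower. Within 0.5 Mb 3 of 19 were called (15.8%), 2510039O18Rik, Mfn2 and Fbxo44, and the median size was 0.215 there against 0.343 over the members and 0.338 over all genes. From 0.5 to 1 Mb 4 of 8 were called, from 1 to 2 Mb 5 of 18, from 2 to 3.5 Mb 4 of 20 and from 3.5 to 5 Mb 8 of 18.

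**Figure D4:**
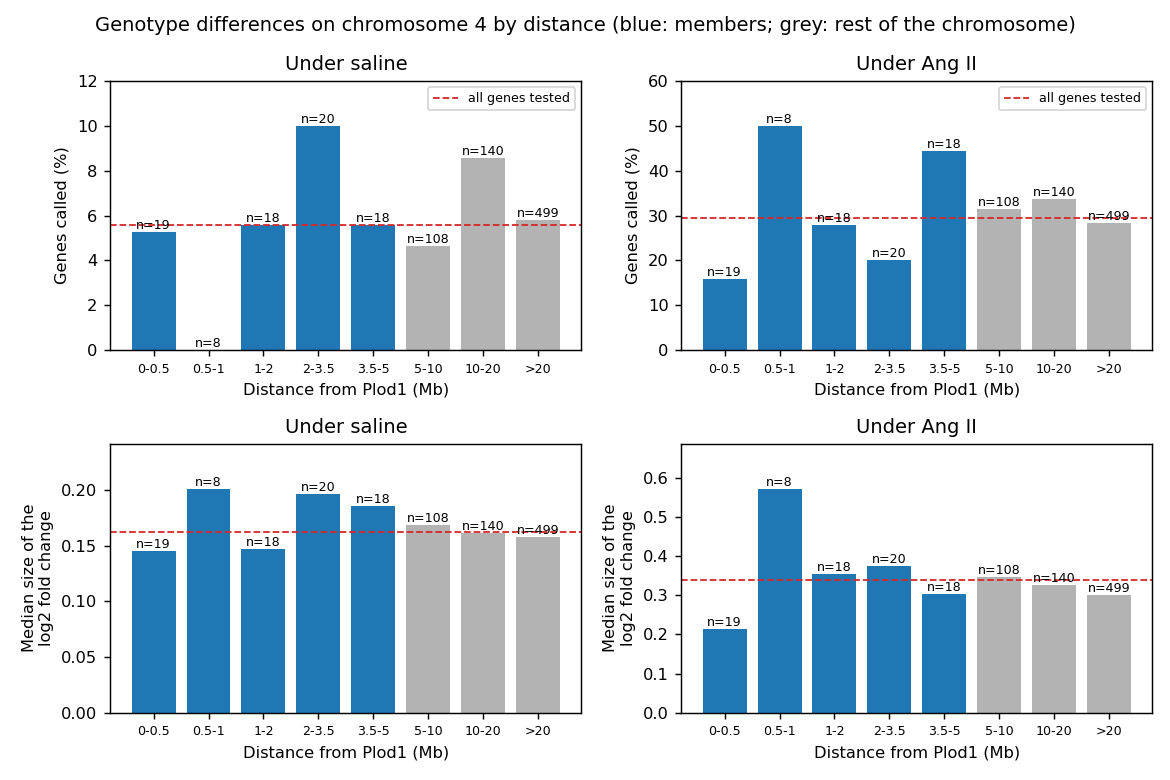
Share of genes called (upper plots, percent) and median size of the log2 fold change of Plod1-/- against WT (lower plots) by distance from Plod1 in Mb, under saline (left) and Ang II (right). Blue bars are the 83 members, grey bars the rest of chromosome 4, n is the number of genes, and the dashed line is the value over all genes tested. The nearest bin, with 19 genes, lies below the dashed line in every plot.

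The largest positive differences under Ang II were those of Tnfrsf1b, Pik3cd and Kcnab2. Tnfrsf1b, tumour necrosis factor receptor 2, was at 13.8, 3.91, 4.45, 4.19 and 5.82 FPKM in WT and 11.9, 24.4, 38.5, 37.3 and 25.2 FPKM in the knockout. Pik3cd, the leukocyte catalytic subunit of phosphoinositide 3-kinase, was at 4.75, 1.46, 1.5, 1.64 and 1.98 FPKM in WT and 2.37, 13, 17.8, 18 and 11.5 FPKM in the knockout. Kcnab2, a potassium channel subunit, was at 0.356 to 3.04 FPKM in WT and 1.10 to 8.80 in the knockout. For each of these genes WT replicate 1 was the highest WT mouse and Plod1-/- replicate 1 the lowest knockout mouse, so the groups overlapped. Their differences were 1.97 ± 0.36, 1.91 ± 0.45 and 1.73 ± 0.43 (limma adjusted p = 0.00482, 0.0114 and 0.014), and under saline they were -0.07, 0.15 and 0.13 (not called). The same mice were at the edges for the summed macrophage markers, at 1288 FPKM in that WT mouse and 633 in that knockout mouse. Neutrophil markers were called higher in 3 of 3 genes tested, and red blood cell markers in 4 of 4. Their part in these results was not tested. Without these 2 mice 30 members were called, against 36.4% of all genes.

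Srm, Cenps and members of the RNA and ribosome list were also called higher under Ang II. Srm, spermidine synthase, was at 24.4, 25.6, 20.9, 27.5 and 26.2 FPKM in WT and 99.2, 54.6, 76.2, 52.0 and 51.9 FPKM in Plod1-/- mice, with no overlap. Its difference was 1.34 ± 0.19 (limma adjusted p = 0.00176), and it had the smallest p of all members in this comparison. Cenps, a protein of centromeres, was at 0.0929 to 0.482 FPKM in WT and 1.28 to 3.85 in the knockout (1.23 ± 0.20, adjusted p = 0.00304). It passed the filter only through these knockout mice, so this direction came with the choice. Of 5 members on a list of RNA and ribosome genes, 4 were called higher (Srm, Tardbp, Nol9 and Rpl22), with a median of 0.49, and 5 of 5 were called in the interaction. Srm was also on the list of metabolic genes and is counted in both. Over all genes tested 29.4% were called under Ang II and 37.8% in the interaction. Exosc10, a subunit of the RNA exosome, was the fifth, at 0.25 (95% interval 0.01 to 0.49). Under saline no member of the list was called (limma, 2 at an unadjusted p below 0.05), and 5 of 5 were below 0 with a median of -0.26. Rps15a-ps3, a processed pseudogene whose reads cannot be told from those of its parent gene, was higher by 0.84 ± 0.13.

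Among the members lower in the Ang II knockout was Slc2a5, the fructose transporter. It passed the filter mainly through WT mice with Ang II, so this direction came with the choice. It was at 0.422, 3.65, 4.58, 1.04 and 9.54 FPKM in WT and 0.0565, 0.0395, 0.0332, 0.0211 and 0.0834 FPKM in the knockout, with no overlap and a difference of -1.86 ± 0.45 (limma adjusted p = 0.013). Nmnat1, which makes NAD in the nucleus, was at 3.18 to 5.40 FPKM in WT and 1.68 to 2.87 in the knockout (-0.64 ± 0.15, adjusted p = 0.0103). Mtor, the kinase of the growth-regulating mTOR complexes, was at 6.15 to 10.4 FPKM in WT and 3.33 to 7.34 in the knockout (-0.66 ± 0.20, adjusted p = 0.0323). Thap3, a zinc finger protein gene, was at 20.3 to 22.5 FPKM in WT and 11.6 to 18.2 in the knockout (-0.59 ± 0.13, adjusted p = 0.00856). Of 8 members on a list of mitochondrial, peroxisomal and NAD genes, 0 had a value above 0 under Ang II, 2 were called lower (Mfn2 and Nmnat1), and the median was -0.38. Over all genes tested 5373 of 13263 were below 0. Summed adipocyte markers were at 882 to 5090 FPKM in WT and 452 to 3105 in the knockout under Ang II, where 2 of 7 were called lower, and skeletal muscle markers were at 2.69 to 285 and 3.62 to 8.63. Whether these tissues take part in the values was not tested.

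The remaining functional lists are given by their counts, beside which 5.59% of all genes tested were called under saline and 29.4% under Ang II. Of 12 members on a list of genes around Plod1, 1 was called under saline and 4 under Ang II. The 4 were 2510039O18Rik, Mfn2, Fbxo44 and Tnfrsf1b, of which Tnfrsf1b lies over 0.5 Mb from Plod1. Of 10 genes of transcription and chromatin, 0 and 1 were called (limma, 1 at an unadjusted p below 0.05 under saline). Of 7 genes of transport, adhesion and the cytoskeleton, 3 were called in each treatment, Clstn1, Espn and Vamp3. Of 8 metabolic genes 0 and 3 were called (1 at an unadjusted p below 0.05 under saline), and Srm, also on the RNA and ribosome list, was among the 3. Of 8 genes of growth and angiotensin signalling 1 and 3 were called. Of 5 ubiquitin ligase genes 0 and 1 were called (3 at an unadjusted p below 0.05 under saline). The 6 expressed genes of the zinc finger cluster, which share much sequence so that reads may be split among them, had 0 called under saline (limma, 0 at an unadjusted p below 0.05) and 1 under Ang II, Zfp991 (0.68 ± 0.21, adjusted p = 0.0307), which was called in 12 of 20 alternatives and in 4 of 10 that left out 1 mouse. Tnfrsf25, a death receptor, was lower under Ang II, at -0.83 ± 0.25 (adjusted p = 0.0285), opposite to Tnfrsf1b, and was called in 13 of 20 alternatives and in 5 of 10 that left out 1 mouse. Angptl7, a secreted angiopoietin-like protein gene within the span of Mtor, differed by -0.998 (95% interval -1.96 to -0.04, adjusted p = 0.177) under saline and by 0.69 (-0.54 to 1.92) under Ang II.

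The saline and Ang II comparisons used different mice, so each member was measured in separate sets of animals. Of the 83 members 4 were called in both comparisons, of which 2510039O18Rik kept its direction and the other 3 (Clstn1, Espn and Vamp3) reversed it. Over all genes 0.324% (43) were called in both with 1 direction and 1.99% (264) with a reversed direction. The sign was the same for 34 members (41.0%) and for 34.9% of all genes. Across the members the correlation of the differences was r = -0.20 (rho = -0.25, n = 83 genes), and across all genes r = -0.34 (rho = -0.38, n = 13263), where the points share libraries within each treatment. Within 0.5 Mb r was -0.02 (n = 19), and 8 of 19 had the same sign. On the whole of chromosome 4, Plod1 and 5 other genes were called in both in the same direction. After 2510039O18Rik the nearest was Selenon at 13.4 Mb, and the others, Sdc3, Azin2 and B4galt2, were at 17.1, 18.9 and 30.0 Mb.

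**Figure D5:**
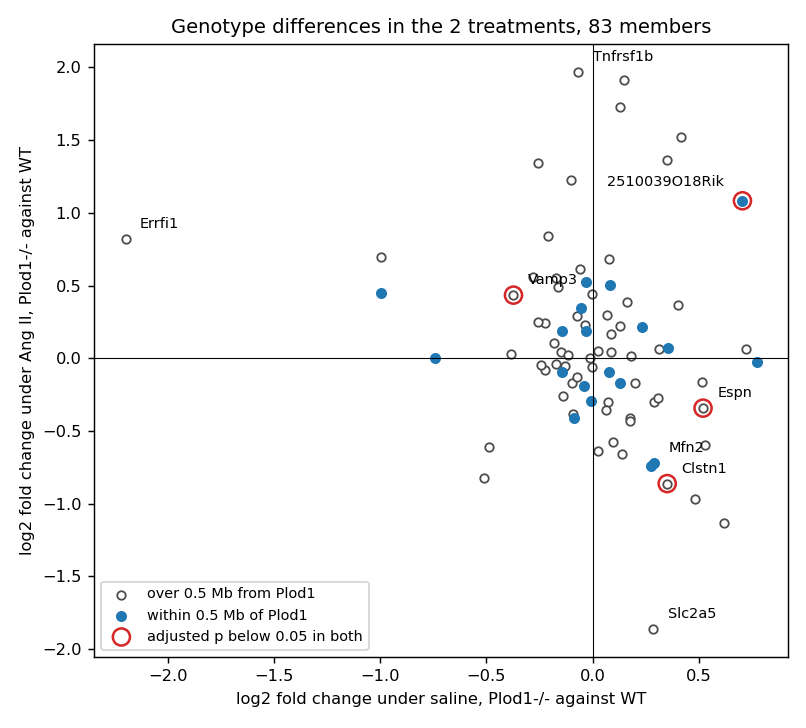
Log2 fold change of Plod1-/- against WT under Ang II (vertical axis) against that under saline (horizontal axis) for the 83 members, on log2(FPKM + 1). Filled points lie within 0.5 Mb of Plod1, and red rings mark the 4 members called in both comparisons. The ring at upper right is 2510039O18Rik, and the other 3 lie where the signs differ.

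Over both treatments, in a fit of all 20 mice, 3 of 83 members were called, all higher, against 2.01% of all genes. Besides 2510039O18Rik these were Acot7 and Gpr153, both over 4 Mb away. Acot7, an acyl-CoA thioesterase, was at 11 to 15.7 FPKM in WT and 13.5 to 19.5 in Plod1-/- mice with saline. With Ang II it was at 17.1, 19.3, 13.6, 10.8 and 20.2 FPKM in WT and 56.2, 19, 54.9, 62.9 and 35.7 FPKM in the knockout. Gpr153, an orphan receptor, was at 3.26 to 4.10 and 3.34 to 7.57 FPKM with saline and at 3.68 to 4.82 and 5.89 to 32.9 FPKM with Ang II. Their differences over both treatments were 0.86 ± 0.20 and 0.97 ± 0.23 (limma adjusted p = 0.0373 and 0.0349). Unlike for 2510039O18Rik, the genotype difference of each was called as larger under Ang II, by 1.01 and 1.10 (adjusted p = 0.0274 and 0.0322), and neither was called under saline. Acot7 was called over both treatments in 14 of 28 alternatives and Gpr153 in 17 of 28. Dffa, Slc25a33 and Tnfrsf25 had the same sign in both treatments and were not called over both (adjusted p = 0.197, 0.102 and 0.0638). The count was 1 without WT Ang II replicate 2, 3, 4 or 5, Plod1-/- saline replicate 4 or Plod1-/- Ang II replicate 3 or 4. In these fits 0.528% to 1.09% of all genes were called. The count was 7 without Plod1-/- Ang II replicate 1, against 6.45% of all genes.

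Genotype differences that changed with treatment were common. The interaction was called for 30 of 83 members, 16 in the positive and 14 in the negative direction, against 37.8% of all genes. Within 0.5 Mb 3 of 19 were called: Mir7022, Fbxo44 and Mfn2. In WT mice Ang II changed 26 members, 16 up and 10 down, against 36.0% of all genes. In Plod1-/- mice it changed 34, 21 up and 13 down, against 42.8% of all genes. With quantile normalization the latter were 16 up and 22 down. Each of these comparisons shares mice with the genotype comparisons. In WT the rises included Pgd (1.92), Eno1 (2.1) and Rbp7 (2.88), genes of sugar and retinoid metabolism, beside summed adipocyte markers that went from 90.1 to 525.8 FPKM with saline to 882 to 5090 FPKM with Ang II. In the knockout the largest fall was that of Clstn1 (-1.41).

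The 198 window genes below the filter were described by mouse only. Of these, 2 were listed at 0 in all mice and 20 reached 1 FPKM in at least 1 mouse. Genotypes did not overlap for 4 of them under saline (2.02%) and 5 under Ang II (2.53%), against 1.46% and 2.56% of the 30159 genes below the filter in the whole genome. Of the 198, 2 (1.01%) did not overlap in both treatments in 1 direction, against 0.0133% (4) of all genes below the filter. These 2, higher in the knockout, were Zfp993, a zinc finger gene 1.25 Mb from Plod1 with at most 0.975 FPKM, and Pramef12 at 3.5 Mb with at most 0.811 FPKM. They were picked out by their values. Zfp993 was at 0.146 to 0.319 FPKM in WT and 0.336 to 0.713 in Plod1-/- mice with saline. With Ang II it was at 0.116 to 0.278 and 0.362 to 0.975 FPKM.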

How the data were processed

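The deposited files give 1 FPKM value per gene for each of 20 libraries. Per the study's methods, the authors aligned reads with HISAT2 and made the FPKM values with stringtie, cuffquant and cuffnorm. The submitters' processing notes name mm10, HISAT2 2.1.0, Bowtie2 2.2.3 and HTSeq 0.6.0. The libraries were not strand-specific, so 39 members that overlap another gene can share its reads. Cuffnorm scales libraries to each other. Read counts were not used here, and depth was known only in relative terms.

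Genes reaching 1 FPKM in 5 or more of the 20 mice were tested with limma 3.58.1 (R 4.3.3, variance trend) on log2(FPKM + 1), with Benjamini-Hochberg adjustment over 13263 genes. The code was tested on simulated data. Distance is the gap between gene spans in GENCODE M21. Promoters are from RefSeq, GRCm38.p6. Named genes were the 3 nearest on each side, those called under saline (up to 10) or over both treatments with 1 direction (up to 10), up to 6 called in the interaction by p, the 5 highest and 5 lowest under Ang II among called genes without overlap, the 3 highest and 3 lowest under saline, and the member of each functional list with the smallest p over both treatments. A gene that this rule named is not reported here. Other genes named were chosen after their values were seen. The members, lists and tests were chosen with earlier results of these data known. Alternatives changed the pseudocount, filter, scaling, variance trend, model and libraries.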

Additional observations from a re-analysis of the deposited data

Results flagged for a closer look

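Single mice stood apart from the other 4 of their group in 9 of 108 groups examined (27 named genes in 4 groups). No chance rate is set beside this count, since many genes were named for their values and the groups share mice. Errfi1 was at 951 FPKM in WT saline replicate 1 against 106 to 217 in the others, and at 150.2 FPKM in Plod1-/- Ang II replicate 1 against 47.3 to 67.3. Pik3cd was at 4.75 FPKM in WT Ang II replicate 1 against 1.46 to 1.98. Slc2a5 was at 1.93 FPKM in Plod1-/- saline replicate 2 against 0.0309 to 0.402. Fv1 was at 2.31 FPKM in Plod1-/- saline replicate 1 against 1.32 to 1.52, and Dffa at 3.52 FPKM in WT saline replicate 1 against 5.15 to 5.78. Vamp3 was at 36.4 FPKM in Plod1-/- Ang II replicate 3 against 29.2 to 30.6. Mir7022 was at 0.63 FPKM in WT Ang II replicate 3 and at 0.575 FPKM in Plod1-/- saline replicate 1, and listed at 0 in the other mice of those groups.

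The genotype difference changed with treatment for 16 named genes by the interaction test of limma. It was more positive under Ang II for Errfi1 (3.02), Pik3cd (1.77), Srm (1.60), Mir7022 (1.44), Cenps (1.33), Gpr153 (1.10), Rps15a-ps3 (1.05), Acot7 (1.01) and Vamp3 (0.81). It was more negative for Slc2a5 (-2.15), Clstn1 (-1.21), Thap3 (-1.12), Mfn2 (-1.01), Fbxo44 (-1.01), Espn (-0.86) and Nmnat1 (-0.67). Adjusted p-values ran from 0.000143 (Espn) to 0.0322 (Gpr153). Cenps passed the filter only through knockout mice with Ang II and Slc2a5 mainly through WT mice with Ang II, so their changes came with the choice.

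Among genes below the filter, Nppa and Nppb, the natriuretic peptide genes 64.0 and 49.0 kb from Plod1, stood out in a single mouse. In Plod1-/- saline replicate 1 Nppa was at 53.5 FPKM and Nppb at 5.62 FPKM, against at most 0.511 and 0.636 in the other 19 mice. Summed markers of atrial muscle were at 142 FPKM in this mouse, and the next highest library, a WT saline mouse, was at 77.8 FPKM. The part of heart tissue in these values was not tested.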

How the results depend on the processing

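Read counts were not used, so depth limits could not be computed, and 5 mice per group limit the precision. Of 83 members, 5 were called under saline, 24 under Ang II, 3 over both treatments, 30 in the interaction, 26 with Ang II in WT and 34 with Ang II in Plod1-/- mice. With the added fold limit these counts were 1, 9, 0 (limma, 19 at an unadjusted p below 0.05), 16, 7 and 12, against 0.716%, 10.4%, 0.445%, 16.1%, 8.52% and 13.9% of all genes. Of the 44 members that overlap no other gene, 3 were called under saline, 14 under Ang II and 15 in the interaction. Over all genes these shares were 5.59%, 29.4% and 37.8%. With no filter on low values the counts among the 83 members were 1 under saline, 1 over both treatments and 14 with Ang II in WT (0.357%, 0.0766% and 7.78% of all genes). The replicate block gave 2 under saline, 15 under Ang II and 1 over both treatments (1.46%, 17.6% and 0.528% of all genes). Replicate numbers did not pair the mice: correlations between same-numbered mice ran from -0.33 to 0.42, 5 of 20 were over 0.1, and 5 of 20 mice matched their own number best. Without both libraries holding Xist RNA the counts were 2 under saline and 5 over both treatments (2.53% and 6.32% of all genes), and 25 members (30.1%) in place of 14 did not overlap under Ang II, against 27.1% of all genes. One fit of all 4 groups gave 3 under saline (1.09% of all genes). Without Plod1-/- saline replicates 4 and 5 it was 0 (limma, 19 at an unadjusted p below 0.05, 0.641% of all genes). Leaving out 1 mouse at a time gave 1 to 7 under saline, 17 to 30 under Ang II, 1 to 7 over both treatments, 25 to 33 in the interaction, 14 to 36 with Ang II in WT (14 without WT Ang II replicate 5, 15 without WT Ang II replicate 2, 16 without WT saline replicate 2) and 26 to 41 with Ang II in Plod1-/- mice. Over all genes these ranges were 1.2% to 4.91%, 16.6% to 36.1%, 0.528% to 6.45%, 32.5% to 44.4%, 21% to 53% and 36.0% to 50.9%. Quantile normalization split the calls with Ang II in Plod1-/- mice into 16 up and 22 down and those over both treatments into 3 higher and 1 lower, and leaving out mitochondrial genes split the former into 17 and 16. The cause of these changes was not tested.

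Genes that changed sign were not called on either side. Under saline Fv1 was at 0.012 with a pseudocount of 0.1, 0.026 without the Xist libraries and 0.044 without Plod1-/- replicates 4 and 5, where Nmnat1 was at -0.013. Under Ang II Gm13245 and Miip were at -0.083 and -0.064 with quantile normalization and -0.0042 and -0.023 without mitochondrial genes, and Fbxo2 was at 0.18 without the Xist libraries and 0.31 without replicate 1 of each genotype. Leaving out 1 mouse at a time, the ranges were -0.14 to 0.13 for Fv1 and -0.015 to 0.078 for Nmnat1 under saline. Under Ang II they were -0.028 to 0.14 for Gm13245, -0.011 to 0.19 for Miip and -0.17 to 0.18 for Fbxo2, and over both treatments -0.40 to 0.023 for Angptl7. Of 1578 refitted values of named genes, 1433 kept direction and side of the threshold, 99 were no longer called, 20 became called and 26 changed sign. The median size within 0.5 Mb under Ang II ranged from 0.215 to 0.335, the latter with a pseudocount of 0.1. The alternatives for the Ang II responses, for overlap and distance, and those leaving out pairs of mice were chosen after seeing the data.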
